A study of Mus musculus with 18 samples.

Results

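Markers of oligodendrocyte precursors and of committed precursors were followed in a mouse medulloblastoma cell line and in whole mouse brain. The 10 genes were taken by name from the gene tables, which held 55183 genes for the cells and 19464 for the brains, and each of the 10 was found in both tables. Pdgfra, C1ql1, Lhfpl3, Pcdh15 and Neu4 were handled as markers of the precursor stage, and Gpr17, Bcas1, Enpp6, Itpr2 and Fyn as markers of the committed stage. The cells were PTCP53 304, 1 line of sonic hedgehog (SHH) medulloblastoma with the genotype Ptch1+/-; Trp53-/-, exposed to CT-179, which the labels give as OLIG2 inhibition, or to vehicle until culture day 6 (144 h) or day 1 (24 h). All cell groups share that genotype, so none is wild type. The brains were whole brains of mice with the genotype label Ptch1+/-; IR, which received CT-179 or vehicle for 12 days, starting on postnatal day 3 and ending on day 15. The letters IR are not explained in the labels, and the dose or concentration of CT-179 is not given there. Each of the 6 groups held 3 libraries of messenger RNA sequencing, and nothing in the labels says whether these were separate cultures or animals. The p-values below therefore speak of the spread between libraries, and that spread may be technical.

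Oligodendrocyte precursors are dividing glial cells that express the growth factor receptor PDGFRA and depend on the basic helix-loop-helix factor OLIG2. They leave the cell cycle and pass through a short committed stage, marked by the receptor GPR17, before they make myelin. In the cerebellum, SHH medulloblastoma arises from granule neuron precursors, and OLIG2 is also found in progenitors of this tumour. PDGFRA is the receptor for the mitogen PDGF-AA. C1QL1 is a secreted protein of the C1q family that binds an adhesion receptor, LHFPL3 is a tetraspan membrane protein, PCDH15 is a cadherin best known for its part in the tip links of hair cells, and NEU4 is a sialidase. GPR17 is a G protein-coupled receptor that holds back the last steps of maturation in mouse, BCAS1 marks early myelinating cells, ENPP6 is a choline phosphodiesterase of cells that are starting to form myelin, ITPR2 is a calcium channel of the endoplasmic reticulum, and FYN is a Src family kinase that acts in myelination.

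Levels are FPKM as the authors deposited them, that is, fragments per kilobase of gene and adjusted for how deeply a library was sequenced. Each fold change was taken on log2(FPKM + 1), so changes of low genes are understated. Tests are limma's, over every gene that reached 1 FPKM in 3 or more libraries, with Benjamini-Hochberg adjustment and a threshold of 0.05. That filter kept 8 of the 10 markers in cells, without Neu4 and Enpp6, and 9 of 10 in brain, without Pcdh15. The depth implied by the smallest steps of the values lay between 29500000 and 70900000 reads for the cell libraries, and between 17800000 and 63500000 reads for those of brain. 1 library stood apart. CT-179 replicate 2 at 144 h correlated at 0.941 and 0.943 with the other libraries of its group across genes, against 0.996 or more for every other pair of cell replicates, and results that rest on it are given with and without it. Gpr17 passed the filter in cells only through its libraries of 144 h, so counts and medians over the tested markers are given as descriptions.

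The start regions of some of these genes are shown because OLIG2 belongs to a family of factors that bind the motif CANNTG, the E-box. RefSeq promoters (GRCm38.p6, 250 bases before to 50 after the start) were matched for 7 of the 10 genes, and those for Gpr17, Bcas1 and C1ql1 are not used here. Shown are Pdgfra and Lhfpl3, which rose with culture time, Itpr2, which was lower with CT-179 in the fits without the library apart, and Enpp6, which stayed near 0 in the cells. Pdgfra lies at chr5:75152001-75152300 (plus strand), Lhfpl3 at chr5:22745804-22746103 (plus strand), Itpr2 at chr6:146502174-146502473 (minus strand) and Enpp6 at chr8:46986637-46986936 (plus strand). Each is written 5′ to 3′ on the strand of its gene, with every CANNTG in capitals.
Pdgfra: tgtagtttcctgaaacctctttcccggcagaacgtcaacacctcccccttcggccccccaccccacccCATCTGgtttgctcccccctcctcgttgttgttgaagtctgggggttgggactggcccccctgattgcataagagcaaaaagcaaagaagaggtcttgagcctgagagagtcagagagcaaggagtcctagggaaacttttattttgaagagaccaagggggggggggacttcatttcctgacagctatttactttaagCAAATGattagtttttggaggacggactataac
Lhfpl3: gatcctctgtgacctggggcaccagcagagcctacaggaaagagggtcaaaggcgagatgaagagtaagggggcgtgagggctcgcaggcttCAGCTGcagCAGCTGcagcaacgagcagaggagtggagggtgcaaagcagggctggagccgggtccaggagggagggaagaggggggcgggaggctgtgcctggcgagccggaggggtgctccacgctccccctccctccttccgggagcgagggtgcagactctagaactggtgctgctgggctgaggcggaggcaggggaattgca
Itpr2: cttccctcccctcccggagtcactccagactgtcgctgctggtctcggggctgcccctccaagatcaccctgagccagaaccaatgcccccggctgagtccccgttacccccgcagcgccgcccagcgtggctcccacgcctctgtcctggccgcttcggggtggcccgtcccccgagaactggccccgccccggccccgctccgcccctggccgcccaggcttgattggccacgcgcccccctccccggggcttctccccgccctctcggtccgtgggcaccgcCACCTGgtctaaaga
Enpp6: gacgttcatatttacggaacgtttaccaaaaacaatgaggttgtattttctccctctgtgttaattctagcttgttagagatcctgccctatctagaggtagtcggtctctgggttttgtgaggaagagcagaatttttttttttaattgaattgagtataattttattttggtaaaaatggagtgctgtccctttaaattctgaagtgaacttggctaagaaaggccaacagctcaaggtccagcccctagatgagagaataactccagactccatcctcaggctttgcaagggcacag
Pdgfra held CATCTG at base -182 and CAAATG at base 18 relative to the start. Lhfpl3 held CAGCTG at bases -158 and -149, and Itpr2 held CACCTG at base 36. Enpp6 held no match in this window. Of the matched promoters not shown, that of Neu4, a gene also near 0 in the cells, held CACCTG at base -103. Those of Pcdh15 and Fyn held matches too. CANNTG reads the same on both strands and occurred in 72.3% of all 32851 promoters of that length, CAGATG (on either strand, so also as CATCTG) in 17.2%, and CAGCTG in 16.3%. The Itpr2 window was also rich in G and C, at 73.3% with 26 CpG, whereas that of Enpp6 had 40.3% with 4 CpG and the median promoter 52.7% with 7 CpG. A match is a description of the letters and shows no binding.

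In the cells the markers fell into abundant, moderate and near-absent genes, and the label precursor holds only in part. C1ql1 and Fyn were the highest of the 10 in all 4 cell groups. At 144 h C1ql1 averaged 193 ± 42.3 FPKM under CT-179 and 157 ± 3.93 FPKM under vehicle, and Fyn averaged 80.5 ± 10.6 FPKM under CT-179 and 86.7 ± 1.36 FPKM under vehicle (SD, n = 3 each). In CT-179 cells at 144 h these were followed, by mean, by Lhfpl3, Bcas1, Gpr17, Pdgfra, Itpr2 and Pcdh15. Lhfpl3 (43.6 ± 8.04 FPKM) and Bcas1 (39.7 ± 1.34 FPKM) did not differ beyond their spread, and Lhfpl3 was the lower only in the library apart. Pdgfra, Itpr2 and Pcdh15 kept their order in every library of that group. They stood at 20.7, 15.4 and 10.7 FPKM in replicate 1 and at 21.6, 15.1 and 10.6 FPKM in replicate 3. In the library apart they stood at 9.68, 9.64 and 3.27 FPKM. In vehicle cells at 144 h the order below Fyn was Gpr17 (49.3 ± 3.16 FPKM), Lhfpl3 (48.4 ± 0.978 FPKM), Bcas1 (41.1 ± 0.947 FPKM), Pdgfra (21.4 ± 0.294 FPKM), Itpr2 (18.9 ± 0.882 FPKM) and Pcdh15 (12.0 ± 0.342 FPKM), and of these Gpr17 and Lhfpl3 did not differ beyond their spread. Neu4 and Enpp6 were at or near 0. The highest Neu4 value in any cell library was 0.0922 FPKM, about 13.9 implied reads, and the highest Enpp6 value was 0.111 FPKM, about 23.7 implied reads.

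Other genes that define the lineage split in the same way. Olig2 averaged 203 ± 19.7 FPKM under CT-179 and 201 ± 4.27 FPKM under vehicle at 144 h. Sox10, a factor that oligodendrocyte lineage cells carry throughout, was at 0.319 ± 0.0783 FPKM under CT-179 and 0.213 ± 0.00415 FPKM under vehicle at 144 h (SD, n = 3 each), against 41.6 ± 3.07 FPKM under CT-179 and 39.6 ± 2.41 FPKM under vehicle in brain. Of 19 other precursor genes, 17 reached a mean of 1 FPKM in cells at 144 h in each treatment. Of 15 myelin genes 5 did, and the myelin surface gene Mog was listed at 0 in all 12 cell libraries. The genes are called markers below, and the cells are not called precursors. The 8 microglial markers summed to at most 0.273 FPKM in any cell library. The 10 astrocyte markers all reached 1 FPKM at 144 h, and summed to 1235 to 1337 FPKM with CT-179 and 1227 to 1244 FPKM with vehicle.

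**Figure D1:**
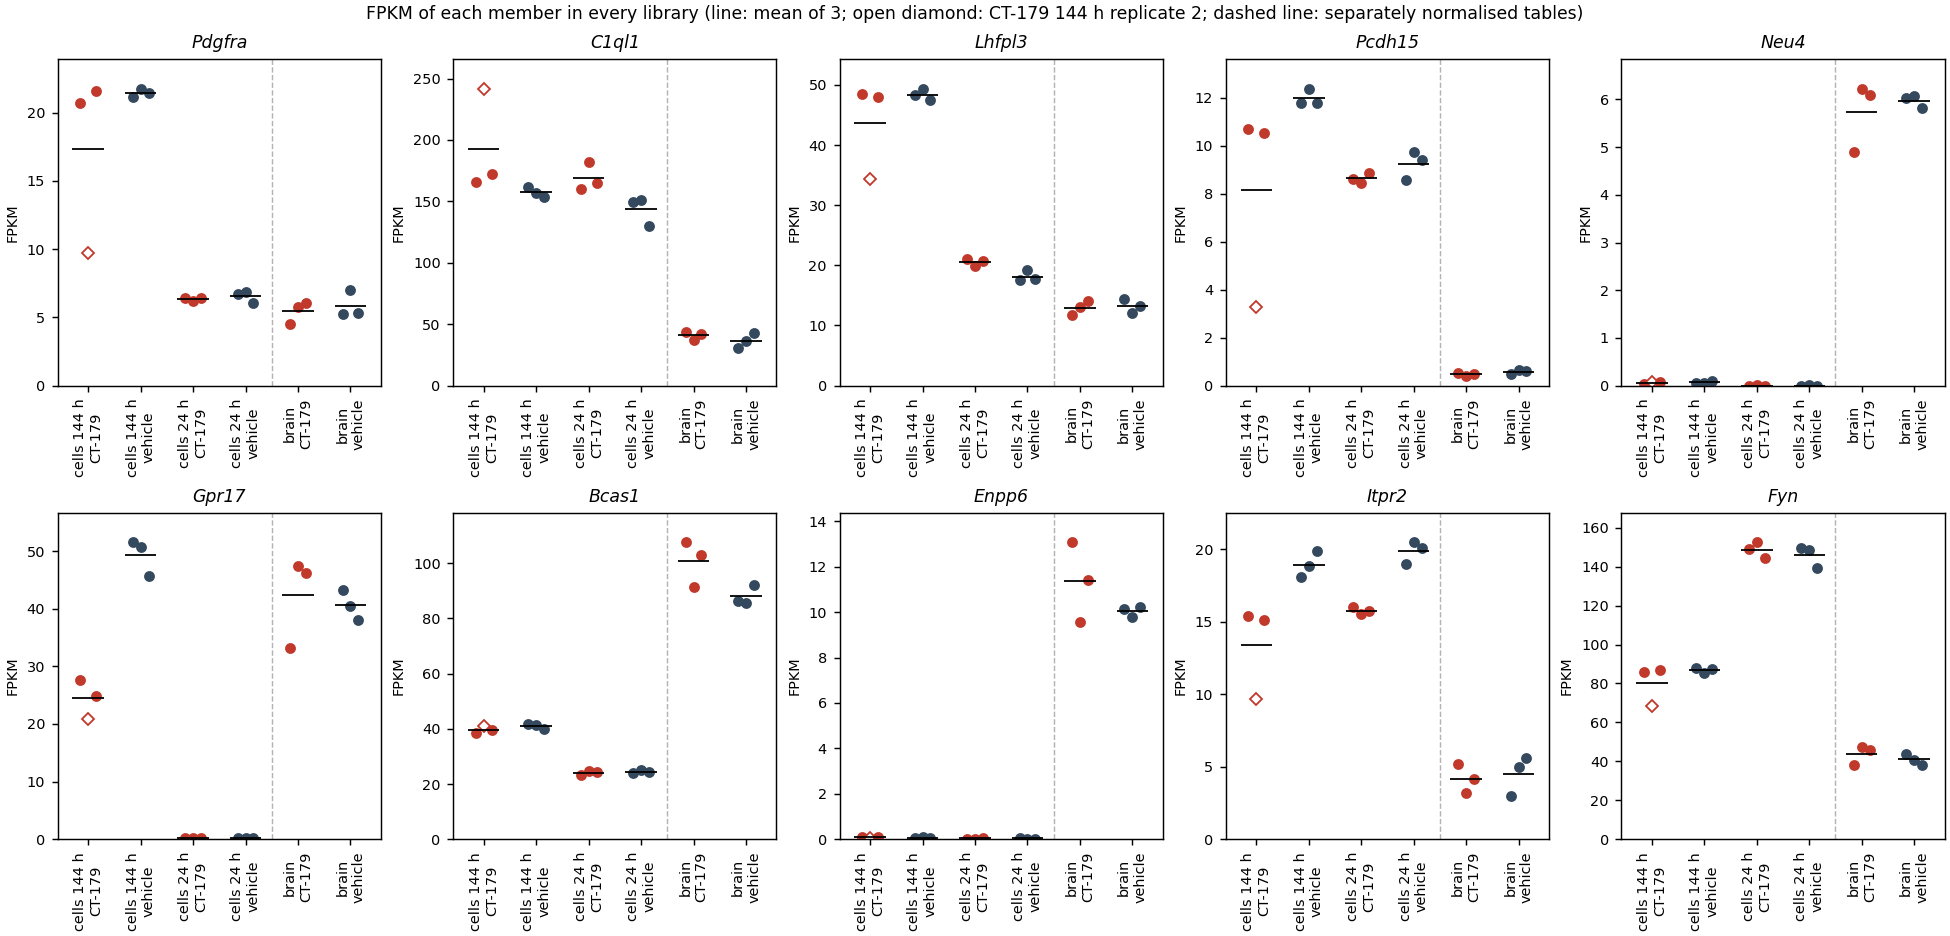
Deposited FPKM of each of the 10 markers in every library, 1 panel per gene, with a linear axis from 0. Points are libraries, black lines are means of 3, the open diamond is CT-179 replicate 2 at 144 h, and cells and brains on either side of the dashed line come from separately normalised tables. Gpr17 stands at 20.8 to 27.7 FPKM in CT-179 cells and 45.7 to 51.5 FPKM in vehicle cells at 144 h, and at most 0.270 FPKM in any cell library at 24 h.

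In CT-179 cells 4 of the 8 tested markers were higher and 1 was lower at 144 h than at 24 h, on a background in which 65.3% of 12510 genes passed (33.2% higher and 32.1% lower), so the count itself is close to that of all genes. In vehicle cells the same 5 markers passed in the same directions, on a background of 66.5% (34.1% higher and 32.4% lower). The median of the 8 was 0.44 in CT-179 cells, against -0.02 over all genes, and 0.53 in vehicle cells, against 0.01 over all genes.

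Gpr17 had the widest range. With CT-179 it stood at 27.7, 20.8 and 24.9 FPKM at 144 h, against 0.209, 0.254 and 0.270 FPKM at 24 h. With vehicle it stood at 51.5, 50.8 and 45.7 FPKM at 144 h, against 0.217, 0.226 and 0.242 FPKM at 24 h. Every library at 144 h was far above every library at 24 h, where the values rest on 27.9 to 57.8 implied reads per library. The ratio of mean FPKM at 144 h to that at 24 h was 100 with CT-179 and 216 with vehicle. On the log2(FPKM + 1) scale the change was 4.35 (SE 0.09) with CT-179 and 5.36 (SE 0.09) with vehicle. These are descriptions with no test, since Gpr17 entered the fit only through its libraries at 144 h, and its place among the markers counted above rests on the same libraries.

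Of the precursor markers, Pdgfra and Lhfpl3 rose. Pdgfra was at 20.7, 9.68 and 21.6 FPKM with CT-179 and 21.1, 21.7 and 21.4 FPKM with vehicle at 144 h. At 24 h Pdgfra was at 6.41, 6.23 and 6.42 FPKM with CT-179 and 6.70, 6.83 and 6.08 FPKM with vehicle. The times did not overlap in either treatment, and the low value at 144 h, 9.68 FPKM, is that of the library apart. The Pdgfra log2 change was 1.24 with CT-179 (adjusted p = 6.26e-04), 1.59 with CT-179 without that library, and 1.58 with vehicle (adjusted p = 1.06e-04). Lhfpl3, at 48.5, 34.3 and 48.0 FPKM with CT-179 and 48.3, 49.4 and 47.4 FPKM with vehicle at 144 h, rose by 1.04 with CT-179 (adjusted p = 1.32e-05) and by 1.37 with vehicle (adjusted p = 1.37e-06). Its 24 h values were 21.0, 19.9 and 20.7 FPKM with CT-179 and 17.5, 19.2 and 17.7 FPKM with vehicle.

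C1ql1 and Pcdh15 did not pass in either treatment over the 12 libraries. In CT-179 cells C1ql1 had a log2 change of 0.17 and Pcdh15 one of -0.21, and in vehicle cells C1ql1 had 0.14 and Pcdh15 0.34. Without the library apart Pcdh15 turned to 0.27 in CT-179 cells (adjusted p = 1.82e-04) and passed at 0.34 in vehicle cells (adjusted p = 8.49e-06), and C1ql1 passed in vehicle cells at 0.14 (adjusted p = 0.0445). On that fit the background is 85.6% of 12459 genes with CT-179 and 87.7% with vehicle, so most genes passed.

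Among the committed markers other than Gpr17, Bcas1 rose and Fyn fell with time. Bcas1 was at 38.4, 41.1 and 39.6 FPKM with CT-179 at 144 h, against 23.1, 24.7 and 24.2 FPKM at 24 h, and at 41.9, 41.4 and 40.1 FPKM with vehicle at 144 h, against 24.1, 25.1 and 24.3 FPKM at 24 h. Its change was 0.70 with CT-179 (adjusted p = 5.44e-07) and 0.73 with vehicle (adjusted p = 4.08e-07), with the 3 libraries of each time close together. Fyn, at 86.0, 68.3 and 87.1 FPKM with CT-179 and 87.7, 85.2 and 87.3 FPKM with vehicle at 144 h, changed by -0.89 with CT-179 (adjusted p = 6.69e-06) and by -0.74 with vehicle (adjusted p = 2.65e-05). At 24 h Fyn had been at 149, 153 and 144 FPKM with CT-179 and 149, 149 and 139 FPKM with vehicle. Itpr2 had a change of -0.25 with CT-179 and -0.07 with vehicle and did not pass in either. Without the library apart the changes with CT-179 were 1.19 for Lhfpl3, 0.68 for Bcas1 and -0.77 for Fyn, each past the threshold, and 4.45 for Gpr17, again as a description. The exons of Lhfpl3 overlap a transcript of the opposite strand over 17.6% of their length and those of Bcas1 over 11.7%, against 4.5% for Pdgfra and 3.6% for Gpr17, and the strand of counting is not given in the sources used here.

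**Figure D2:**
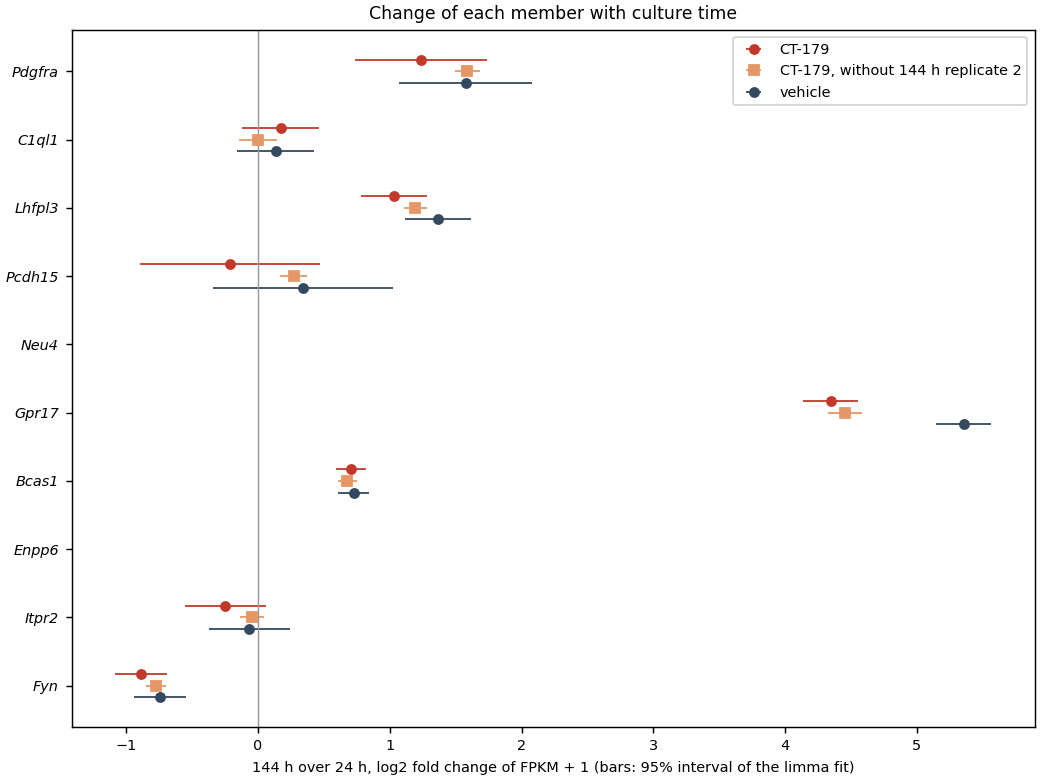
Log2 fold change of FPKM + 1 at 144 h over 24 h for each tested marker, in CT-179 cells, in CT-179 cells without replicate 2 of 144 h, and in vehicle cells; points are limma estimates and bars their 95% intervals. Gpr17 lies at 4.35 with CT-179 and 5.36 with vehicle, Pdgfra and Lhfpl3 above 1 in both, and Fyn at -0.89 with CT-179 and -0.74 with vehicle.

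Other lineage genes passed over time about as often as all genes, of which 65.3% passed with CT-179 and 66.5% with vehicle. Of 17 tested other precursor genes, 9 were higher and 4 lower with CT-179, and 10 were higher and 4 lower with vehicle. Without the library apart these counts were 11 and 6 with CT-179, beside 85.6% of all genes, and 11 and 5 with vehicle, beside 87.7%. Cacng4, a regulatory subunit of glutamate receptors, rose by 1.63 with CT-179 (adjusted p = 1.31e-06) and by 1.78 with vehicle (adjusted p = 6.23e-07). Olig2 fell by 0.98 with CT-179 (adjusted p = 1.24e-06), and its mean fell with vehicle as well. With CT-179 it averaged 400.8 FPKM at 24 h and 203 FPKM at 144 h, and with vehicle 382.4 FPKM at 24 h and 201.5 FPKM at 144 h. Of 10 other committed genes, 5 were higher and 3 lower in each treatment, led by the deacetylase gene Sirt2 at 1.91 with CT-179 and 1.99 with vehicle. Of 5 tested myelin genes, 3 were higher with CT-179 and 2 lower, and 3 were higher with vehicle and 1 lower. Cnp, an enzyme of myelin, had a change of 2.93 in both treatments over the 12 libraries. Without the library apart the Cnp change was 2.80 with CT-179 and 2.93 with vehicle. The PDGF ligand gene Pdgfa fell while its receptor gene Pdgfra rose, with a Pdgfa change of -1.38 with CT-179 (adjusted p = 4.10e-04) and -1.66 with vehicle (adjusted p = 1.03e-04).

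Markers of other states moved with the same contrast, beside the same shares of all genes. The 10 tested astrocyte markers were higher at 144 h in 9 of 10 cases with CT-179 and in 10 of 10 with vehicle, but 6 of the 10 averaged at least 1 FPKM at 24 h and the rest passed the filter through 144 h. Gfap was higher by 6.14 with CT-179 and 6.07 with vehicle. All 5 proliferation genes were lower in both treatments, with a median of -3.64 with CT-179 and -3.31 with vehicle. Of 4 neuronal markers 3 were higher in each treatment, and Dcx rose by 1.27 with CT-179 and 2.17 with vehicle. Dcx and Tubb3 averaged under 1 FPKM at 24 h and passed the filter through 144 h, so these counts are descriptions. In bulk samples fewer cells of a type and less RNA per cell cannot be told apart, and the part of these shifts in the marker changes was not tested.

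With CT-179 at 144 h, Gpr17 was lower and no other marker passed. Its 27.7, 20.8 and 24.9 FPKM with CT-179 stood against 51.5, 50.8 and 45.7 FPKM with vehicle, so that the highest treated library was well below the lowest vehicle library. The ratio of means was 0.496. The log2 change was -0.99 (SE 0.09, 95% interval -1.20 to -0.78, adjusted p = 8.43e-04), and -0.88 without the library apart (adjusted p = 1.07e-05). That is 1 of 8 tested markers, on a background of 3.88% of 12510 genes (0.512% higher and 3.37% lower). The median of the 8 was -0.27, against -0.05 over all genes, and -0.05 against -0.01 without the library apart.

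Itpr2 was also below vehicle in every library, at 15.4, 9.64 and 15.1 FPKM with CT-179 against 18.1, 18.8 and 19.8 FPKM with vehicle. The Itpr2 change was -0.50 with an adjusted p of 0.0795 over the 12 libraries, and -0.29 (SE 0.04, adjusted p = 5.62e-04) without the library apart. Pcdh15 was at 10.7, 3.27 and 10.6 FPKM with CT-179 against 11.8, 12.4 and 11.8 FPKM with vehicle, with no overlap. Its change of -0.64 (adjusted p = 0.178) shrank to -0.16 (adjusted p = 0.0261) without the library apart. In that fit Gpr17, Itpr2 and Pcdh15 are 3 of 8 called, all lower, beside 28.7% of 12459 genes (11.8% higher and 16.9% lower).

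The remaining markers did not pass at 144 h. C1ql1 was higher in every CT-179 library, at 166, 242 and 172 FPKM against 161, 157 and 154 FPKM with vehicle, with a change of 0.27 (adjusted p = 0.178) that became 0.10 without the library apart. Pdgfra had a change of -0.37 (95% interval -0.87 to 0.13) and -0.02 (95% interval -0.11 to 0.07) without the library apart. Bcas1 had -0.05 (95% interval -0.17 to 0.07), Lhfpl3 -0.16 and Fyn -0.12. Without the library apart Bcas1 had -0.07, Lhfpl3 -0.0023 and Fyn -0.0028. Groups did not overlap for 4 of 8 markers, C1ql1, Itpr2, Gpr17 and Pcdh15, as for 46.2% of all genes tested.

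At 24 h no marker passed over the 12 libraries, on a background of 0.264% (33 genes, all lower; 640 genes at an unadjusted p under 0.05). Gpr17 was then near 0 in both treatments and its change was 0.02 (95% interval -0.19 to 0.23). Itpr2 stood at 16.0, 15.5 and 15.8 FPKM with CT-179 against 19.0, 20.5 and 20.1 FPKM with vehicle, a ratio of means of 0.794. C1ql1 stood at 160, 182 and 165 FPKM with CT-179 against 149, 151 and 130 FPKM with vehicle, and Lhfpl3, in the values given above, was likewise higher in every CT-179 library. These 3 markers had groups that did not overlap, as did 37.3% of all genes tested. Without the CT-179 library apart at 144 h, which enters this contrast only through the shared spread, Itpr2 passed at -0.32 (adjusted p = 3.27e-04), C1ql1 at 0.24 (adjusted p = 0.0144) and Lhfpl3 at 0.17 (adjusted p = 0.00578). The background of that fit is 22.2% (8.08% higher and 14.1% lower).

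The difference between the CT-179 effects at 144 h and at 24 h was -1.01 for Gpr17 (SE 0.13, unadjusted p = 1.50e-05, adjusted p = 0.0936). No gene of 12510 passed that test, a background of 0% with 574 genes at an unadjusted p under 0.05 in limma. Without the library apart 2.66% of genes passed (1.2% higher and 1.46% lower), and of the 8 markers only Gpr17, at -0.90 (SE 0.08). At 24 h Gpr17 lay under the pseudocount of 1 in every library, so its effect there was held near 0, and these values restate the effect at 144 h. No difference between the times is read from them. On FPKM without the pseudocount the Gpr17 ratio of means, CT-179 over vehicle, was 1.07 at 24 h and 0.496 at 144 h. The difference between these ratios was not tested. For Itpr2 the difference between the effects was 0.02 (95% interval -0.10 to 0.14) in the fit without the library apart. Its effects there were -0.29 at 144 h and -0.32 at 24 h.

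**Figure D3:**
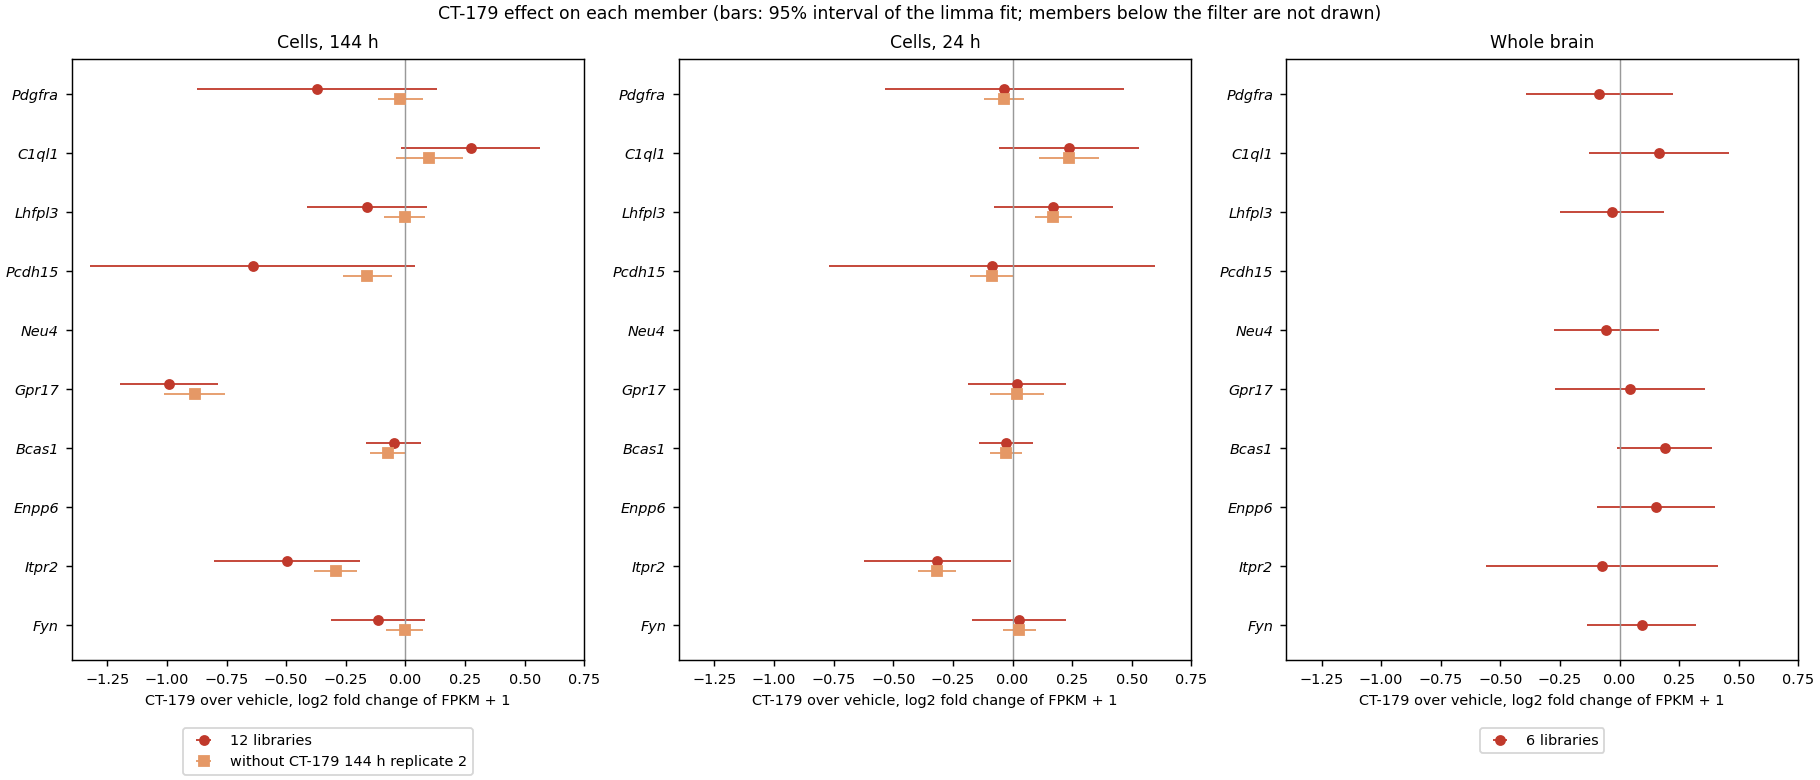
Log2 fold change of FPKM + 1, CT-179 over vehicle, for each tested marker in cells at 144 h, in cells at 24 h and in brain; points are limma estimates and bars their 95% intervals, with circles for all libraries and squares for the cell fit without CT-179 replicate 2 at 144 h. Gpr17 at 144 h lies at -0.99 and -0.88, and Bcas1 in brain at 0.19 with an interval of -0.01 to 0.39.

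The CT-179 fold change of a gene went with its length. Over 11355 protein-coding genes exonic length and fold change had a Spearman rho of -0.68 at 144 h and -0.52 at 24 h. When the library apart was left out it was -0.44 at 144 h, over 11332 genes. With these genes split into 10 bins by length, the medians of the shortest and the longest bin were 0.37 and -0.38 at 144 h, and leaving out that library they were 0.11 and -0.11. Among the markers C1ql1 is the shortest (1473 bases) and Pcdh15 (23773 bases), Itpr2 (14802 bases) and Pdgfra (10024 bases) the longest, while Gpr17 (5195 bases) lies near the middle. With a correction for the trend over length and without the library apart, Gpr17 had -0.85 at 144 h (adjusted p = 9.52e-06), and Pcdh15 0.01 (adjusted p = 0.873). Itpr2 had -0.17 at the later time (adjusted p = 0.00629) and -0.18 at the earlier one (adjusted p = 0.00477).

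**Figure D4:**
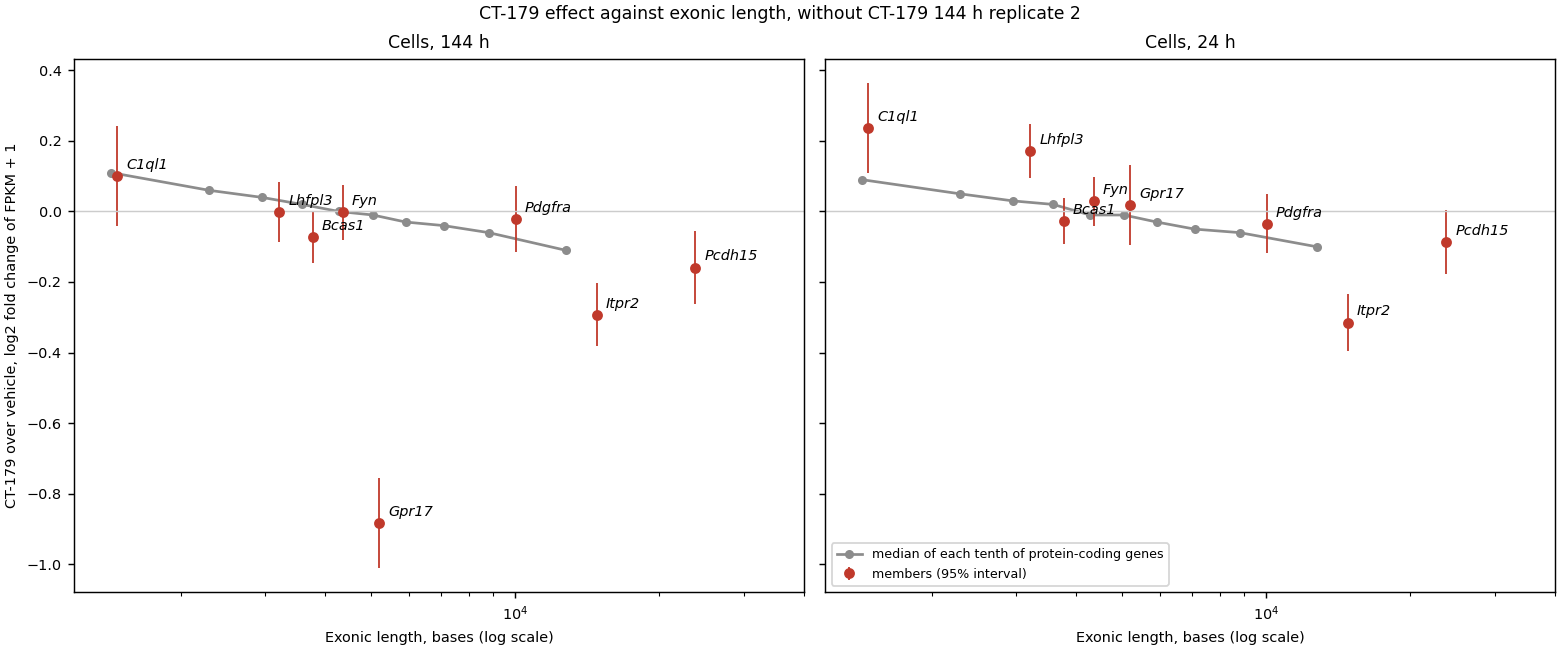
CT-179 over vehicle log2 fold change of FPKM + 1 against exonic length in bases (log axis) at 144 h and at 24 h, in the fit without CT-179 replicate 2 of 144 h. The grey line joins the medians of 10 length bins of the protein-coding genes, which run at 144 h from 0.11 to -0.11, and red points are markers with 95% intervals; Gpr17 at 144 h lies at -0.88.

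Other lineage genes at 144 h gave few calls over the 12 libraries. Tnr, a matrix glycoprotein gene of precursors, was the 1 of 17 other precursor genes that was lower, at -1.12 (adjusted p = 0.0374; -0.73 without the library apart). Rnf122 was the 1 of 10 other committed genes that was higher, at 0.26 (adjusted p = 0.0281), and none of 5 myelin, 3 PDGF or 15 paralogue genes passed. Without the library apart, 9 of the 17 precursor genes were lower and 2 higher, beside 16.9% of all genes lower and 11.8% higher (28.7% in all), with Matn4 at -0.60 and Ptprz1 at -0.34. The median of these 17 was then -0.18, against -0.01 over all genes. The part of the trend over exonic length in these precursor values was not tested. Of the markers of other cells, 1 of 4 tested granule genes was lower, the SHH target Gli1 at -0.83 (adjusted p = 0.00159), and 1 of 4 neuronal genes, Dcx at -0.95 (adjusted p = 0.00332). Of 10 astrocyte markers 2 were lower, the gap junction gene Gja1 at -0.48 (adjusted p = 0.00989) and the FGF receptor gene Fgfr3 at -0.36 (adjusted p = 0.0455), and 1 was higher, the glycolytic gene Aldoc at 0.31 (adjusted p = 0.0334). None of 2 vascular, 2 fibroblast and 5 proliferation genes passed, and the share over all genes was 3.88%. In the fit without the library apart, 28.7% of all genes passed. There 2 of 4 granule genes were lower (Gli1 at -0.73), and 2 of 4 neuronal genes were lower (Dcx at -0.78). Of the astrocyte markers 5 were lower and 2 higher. Of 5 proliferation genes 2 were lower (Mki67 at -0.32 and Top2a at -0.18). Of 2 vascular genes 1 was lower, and of 2 fibroblast genes 1 was higher. In the same fit 2 of 10 other committed genes were higher and 1 lower, and 1 of 5 myelin genes was higher. Of 3 PDGF genes 1 was lower, and of 15 paralogue genes 1 was higher and 1 lower. The 8 neuronal markers summed to 57.5 to 92.0 FPKM with CT-179 and 97.9 to 102 FPKM with vehicle. The 7 granule markers summed to 32.9 to 39.9 FPKM with CT-179 and 48.7 to 49.2 FPKM with vehicle. Both ranges with CT-179 include the library apart, and no sums were taken without it. The median change of the tested neuronal markers was -0.28 over the 12 libraries and -0.18 without it. That of the granule markers was -0.19 and -0.10. Whether these sums bear on the level of Gpr17 was not tested.

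Across the 12 cell libraries, the 5 genes whose log2 levels were most like those of Gpr17 were Adcy8 (Pearson's r 0.999), Gm2061 (0.999), Adgrb1 (0.999), Slc43a2 (0.998) and Vstm2a (0.998). Adcy8, an adenylyl cyclase gene, averaged 3.31 FPKM under CT-179 and 4.73 FPKM under vehicle at 144 h, and 0.0670 FPKM under CT-179 and 0.0577 FPKM under vehicle at 24 h. For Pdgfra they were Katnal1 (0.999), Mprip (0.998), Wdr19 (0.998), Ptprs (0.998) and Ston2 (0.998). Mprip averaged 40.6 FPKM under CT-179 and 48.2 FPKM under vehicle at 144 h, and 23.9 FPKM under CT-179 and 24.5 FPKM under vehicle at 24 h. These are descriptions over libraries that form separate groups by time.

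In brain no marker passed the test. None of 9 tested markers passed, on a background of 0% of 13422 genes, with 490 genes at an unadjusted p under 0.05 in limma. The directions below depend on the treatment label, since the titles of the libraries labelled CT-179 also carry the word vehicle. Gpr17 was at 33.2, 47.5 and 46.3 FPKM with CT-179 against 43.2, 40.5 and 38.0 FPKM with vehicle, and the groups overlapped. Its change was 0.04 with a 95% interval of -0.27 to 0.36, which does not reach the change of -0.99 measured in cells at 144 h; cells and brains were fitted apart and this difference was not tested.

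Bcas1 came nearest to a difference, at 108, 91.5 and 103 FPKM with CT-179 against 86.4, 85.5 and 92.1 FPKM with vehicle. The lowest treated library lay just below the highest vehicle library, and the change was 0.19 (95% interval -0.01 to 0.39, unadjusted p = 0.0588, adjusted p = 0.97). Neu4 and Enpp6, near 0 in the cells, were well measured here. Neu4 was at 4.89, 6.22 and 6.10 FPKM with CT-179 against 6.02, 6.08 and 5.81 FPKM with vehicle, a change of -0.06. Enpp6 was at 13.1, 9.58 and 11.4 FPKM with CT-179 against 10.1, 9.78 and 10.2 FPKM with vehicle, a change of 0.15 that lies within the spread of the treated libraries.

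The other precursor markers in brain also overlapped. Pdgfra was at 4.50, 5.76 and 6.08 FPKM with CT-179 against 5.25, 6.99 and 5.30 FPKM with vehicle. C1ql1 averaged 40.9 ± 3.42 FPKM under CT-179 and 36.6 ± 6.19 FPKM under vehicle, and Lhfpl3 12.9 ± 1.18 FPKM under CT-179 and 13.2 ± 1.15 FPKM under vehicle (SD, n = 3 each). Pcdh15, below the filter, averaged 0.472 ± 0.0579 FPKM under CT-179 and 0.580 ± 0.0929 FPKM under vehicle. Fyn averaged 43.9 ± 4.85 FPKM under CT-179 and 41.0 ± 2.76 FPKM under vehicle, and Itpr2 4.17 ± 1.02 FPKM under CT-179 and 4.50 ± 1.37 FPKM under vehicle. No marker of the 10 had groups that did not overlap, as did 10.3% of all genes tested.

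In the authors' deposited table for the brain, all 10 markers had a false discovery rate of 1, and 17 of 19464 genes (0.0873%) were under 0.05. The fold changes of the authors' deposited table run vehicle over CT-179, with -0.172 for Bcas1, -0.154 for Enpp6, -0.0564 for Gpr17 and 0.195 for Pcdh15. Across 12573 genes the authors' deposited table followed the mean of vehicle replicates 1 and 3 over CT-179 (Pearson's r 0.99998), and all 3 vehicle replicates less closely (0.73082), so vehicle replicate 2, the shallowest library, was not part of it. None of the other lineage lists in brain had a gene past the threshold: 19 precursor, 16 committed, 15 myelin, 5 PDGF and 17 paralogue genes were tested. The 15 myelin genes summed to 6605 to 8219 FPKM with CT-179 and 6048 to 6509 FPKM with vehicle. Their median change was 0.23, against 0.02 over all genes, led by Cldn11 at 0.32 (unadjusted p = 0.00984, adjusted p = 0.97), a tight junction gene of myelin. In brain too the fold change went with exonic length, with a Spearman rho of -0.33 over the genes tested. It was -0.05 without CT-179 brain replicate 1. The part of this trend in the myelin values was not tested. Olig1 had 0.24 (unadjusted p = 0.0158, adjusted p = 0.97) and Olig2 0.16 (adjusted p = 0.97).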

How the data were processed

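RNA from 12 cell and 6 brain libraries was purified with RNeasy columns, made into libraries with a SMARTER mRNA kit and sequenced as paired-end reads, per the labels' protocols. The submitters' processing notes name the build mm10, R 3.6, edgeR 3.28.1, HTSeq 0.6.1p2, STAR 2.6.0c and Trim Galore 0.5.0. Settings, annotation and strand of counting are not given in the sources used here. FPKM per gene and library were deposited by the authors. Their brain table adds, per the file headers, p-values and false discovery rates, a score (the likelihood ratio), a log2 abundance and a log2 fold change.

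Here log2(FPKM + 1) was fitted as group means in R 4.3.3 with limma 3.58.1 (two-sided, with a trend in the moderated variance), the 12 cell libraries in 1 fit and the 6 brain libraries in another. No test crosses the tables, which were normalised separately. The script was tested on simulated data. Exonic lengths came from the GENCODE annotation. Within a tolerance of 0.1 read, low values were whole multiples of 1 read in 89.2% to 91.2% of cases in cells and 93.0% to 97.7% in brain, which gave the implied depths. No count model was run on the FPKM. Brain groups follow the treatment label.

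The markers and 12 gene lists were chosen with earlier results of these data known. Named were the 10 markers, up to 3 genes with the smallest p from each list in each comparison, and the 5 genes with the highest r to Gpr17 and to Pdgfra. The levels of Olig2, Sox10 and Mog were added after their values were seen, as defining genes of the lineage. The alternatives were another pseudocount, no filter, median-of-ratios and TPM scaling, a length correction, a replicate block and leaving out each library. The fits that combine the library apart with another change were chosen after seeing the data. In 144 h over 24 h with CT-179, the deviations of same-numbered libraries correlated at 0.11, 0.24 and 0.14 for numbers 1, 2 and 3. Libraries of unlike number were not compared, so no pairing is read from these correlations. The replicate block in that contrast gave 8079 genes in place of 8169 and the same marker counts.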

Additional observations from a re-analysis of the deposited data

Results flagged for a closer look

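The fitted CT-179 effect on Gpr17 at 144 h minus that at 24 h was -0.90 on the log2(FPKM + 1) scale in limma, in the fit without CT-179 replicate 2 at 144 h, which singled it out as a value that changed with time in culture. Over all 12 libraries it was -1.01 and did not pass (adjusted p = 0.0936). At 24 h Gpr17 was at most 0.270 FPKM in any library, under the pseudocount of 1, so that its effect there was held near 0, at 0.02 over all 12 libraries, and the difference restates the effect at 144 h. On FPKM without the pseudocount the ratio of means, CT-179 over vehicle, was 1.07 at 24 h and 0.496 at 144 h. The groups overlapped at 24 h, where the values rest on 27.9 to 57.8 implied reads per library. No lower level with CT-179 was thus seen at 24 h, but the difference between the times was not tested on that scale.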

How the results depend on the processing

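The fall of Gpr17 with CT-179 at 144 h kept its direction and passed the threshold under every alternative run, from -1.20 with TPM scaling to -0.83 with median-of-ratios scaling without CT-179 replicate 2 of 144 h. Of the marker values under alternatives, 849 kept their direction and side of the threshold, 41 newly passed it, 58 changed sign, and none lost its pass. Apart from Pcdh15 over time with CT-179, no value that changed sign passed the threshold. The cause was not tested in any case. Depth limits Neu4 and Enpp6 in cells and Gpr17 at 24 h, which rest on few reads.

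The count of genes passing for CT-179 at 24 h was 15 with median-of-ratios scaling and 13 with TPM scaling. Without CT-179 replicate 2 of 144 h it was 2762, and 3696 with median-of-ratios scaling added, 1999 with the length correction and 2561 with the replicate block. The markers passing at 24 h were then 3, 4, 3 and 3. At 144 h the genes passing were 3580 without that library, and 4191, 2923 and 3089 with the same additions, with 3 markers and then 2 markers under each addition. The markers passing over time with vehicle were 8 with that library left out and the length correction. The difference between the effects gave 28 genes with no filter, 1 with TPM scaling and 10 with the length correction, and 331 without the library apart, or 309, 394 and 150 with the additions. Without CT-179 replicate 1 of 144 h it gave 3 genes. Gpr17, whose value there restates its effect at 144 h, was the 1 marker passing in that fit, with no filter, with the length correction, without the library apart and with each addition.

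With the replicate block, 2 genes passed at 24 h and 301 at 144 h, against 33 and 486 without it, and it changed no marker count. Same-numbered libraries correlated at -0.01 to 0.06 at 24 h and -0.13 to -0.02 at 144 h, which shows no clear pairing by number. These values cannot tell whether same-numbered libraries share a culture, and the labels do not say. In brain the block gave no gene (333 at an unadjusted p under 0.05 in limma) and correlations of -0.39 to 0.11. The library apart left out with the block turned Lhfpl3 to 0.01 and Fyn to 0.0039 at 144 h.

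Leaving out 1 library at a time, the genes passing ranged from 1 to 2762 at 24 h (0 to 3 markers), 122 to 3580 at 144 h (1 to 3 markers), 7456 to 10922 over time with vehicle (5 to 7 markers), 7373 to 10670 over time with CT-179 (5 to 6 markers), 0 to 331 for the difference between the effects (0 to 1 marker), and 0 to 1 in brain (0 markers). The highest counts in cells are those without CT-179 replicate 2 of 144 h, and without CT-179 replicate 1 there were 1142 genes at 144 h.

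Sign changes at 24 h were those of Pdgfra to 0.01 with median-of-ratios scaling and 0.05 with the length correction (0.02 and 0.05 also without the library apart), Pcdh15 to 0.10 with the length correction with or without that library, Bcas1 to 0.02 with median-of-ratios scaling (0.03 without that library), and Fyn to -0.03 with TPM scaling. At 144 h Bcas1 turned to 0.02 with median-of-ratios scaling. Without the library apart, median-of-ratios scaling turned Pdgfra to 0.03, Lhfpl3 to 0.05 and Fyn to 0.05, and the length correction turned Pdgfra to 0.06, Pcdh15 to 0.01 and Fyn to 0.01. Over time with vehicle Itpr2 turned to 0.03 with TPM scaling. Over time with CT-179 and without the library apart, C1ql1 turned to -0.0008 (-0.06 with median-of-ratios scaling), and Pcdh15 to 0.27, or 0.21, 0.11 and 0.28 with the 3 additions, past the threshold each time.

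For the difference between the effects, C1ql1 turned to -0.10 with TPM scaling and -0.18 with the length correction, and without the library apart to -0.14 (-0.14, -0.15 and -0.11 with the additions). Pdgfra turned without it to 0.01 (0.01, 0.01 and 0.02) and Itpr2 to 0.02 (0.02, 0.01 and 0.02), and Itpr2 to 0.08 with the length correction alone. Bcas1 turned to 0.0014 with median-of-ratios scaling. In brain Gpr17 turned to -0.05 with TPM scaling and Itpr2 to 0.01 with the length correction. Under TPM scaling the all-gene median for CT-179 at 144 h was -0.23. With 1 library left out, values that changed sign ranged as follows. Fyn at 24 h ran from -0.0038 to 0.05, Pcdh15 over time with CT-179 from -0.46 to 0.27, and for the difference between the effects Pdgfra from -0.53 to 0.01, C1ql1 from -0.14 to 0.14, Bcas1 from -0.05 to 0.0012 and Itpr2 from -0.29 to 0.02. In brain Pdgfra ran from -0.16 to 0.03, Lhfpl3 from -0.09 to 0.04, Neu4 from -0.11 to 0.04, Gpr17 from -0.05 to 0.21 and Itpr2 from -0.30 to 0.07.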
